A study of Bos taurus with 12 samples.

Results

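The comparison described here set 3 arrays of SCNT conceptuses against 3 arrays of IVP conceptuses, 6 of the 12 arrays in the series. SCNT (somatic cell nuclear transfer) conceptuses are clones, made by placing a fibroblast nucleus into an oocyte freed of its own. IVP conceptuses came from oocytes fertilized in vitro and cultured in vitro, so the comparison asks what nuclear transfer adds to production in vitro. The other conceptus group, AI, came from embryos produced in vivo, and the last group (FB) is the donor fibroblasts, with 3 arrays each. In every conceptus group blastocysts of day 7 were transferred to synchronized cows, and conceptuses of comparable length were recovered on day 16 of gestation, with RNA taken from 10 mg of tissue. The labels do not say how many conceptuses entered an array, whether the arrays of a group are separate animals, how many fibroblast lines were used or which sex the conceptuses had. The p-values therefore reflect only how much these replicate arrays vary, and part of that may be technical. All 24016 probe sets that are not controls were considered, and the 6571 with a signal above log2 4 on at least 3 of the 6 arrays were tested. A difference is SCNT minus IVP on the log2 scale, given with its standard error (SE).

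At this stage the bovine conceptus is a filament made mostly of trophoblast, the outer epithelium that signals to the uterus through interferon tau and later forms the placenta. Beneath it lies the hypoblast, which lines the yolk sac and secretes plasma proteins and basement membrane. In a clone the donor genome has to leave the expression program of a differentiated cell, and placental defects after nuclear transfer are well known in cattle.

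The tissue label fitted the markers on the SCNT and IVP arrays. KRT18, a keratin of simple epithelia, lay between 12.89 and 13.19 log2 units on all 6, and IFNT2, an interferon tau gene, between 13.18 and 13.35. GATA6, a hypoblast transcription factor, lay between 7.51 and 7.79. The fibroblast genes COL1A1, COL3A1 and LUM were at or near the lowest value of the table, as were the leukocyte gene PTPRC, the globin genes HBA and HBB and the uterine receptor genes PGR and ESR1. POU5F1, a marker of the embryonic disc, was also below 2.55 on all 6 arrays, and KRT8 stayed below log2 4. Other members of these marker lists were on. Above log2 4 on at least 3 of the 6 arrays were 6 of 26 fibroblast, 5 of 29 leukocyte and 2 of 16 uterine genes. So were 10 of 24 erythroid and heme synthesis genes and 1 of 5 embryonic disc genes. Arrays of the same group correlated at 0.976 to 0.987 within SCNT and at 0.976 to 0.983 within IVP, and an SCNT array correlated with an IVP array at 0.964 to 0.979 (Pearson's r across the tested probe sets). On each of the 6 arrays 6364 to 6549 probe sets exceeded log2 4, or 26.5% to 27.3%.

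3 array measures moved in part with the groups. XIST, the RNA that coats the inactive X chromosome and therefore marks female cells, was at 2.42 on SCNT 1, SCNT 2 and SCNT 3 and on IVP 2, but at 4.0 on IVP 1 and 6.55 on IVP 3. The fibroblast arrays were at 2.42 as well, and AI 1, AI 2 and AI 3 were at 4.79, 4.88 and 2.57. The mean signal of the hybridization controls, transcripts added before hybridization, was 7.75 to 7.90 on the SCNT arrays and 8.08, 8.61 and 8.57 on IVP 1, IVP 2 and IVP 3. The gap between the 3′ and 5′ control probe sets of GAPDH, which widens as RNA degrades, was 0.28 to 0.45 in SCNT and 0.35 to 0.89 in IVP, where IVP 3 stood highest. Results were refitted with each of these measures as a covariate.

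**Figure D1:**
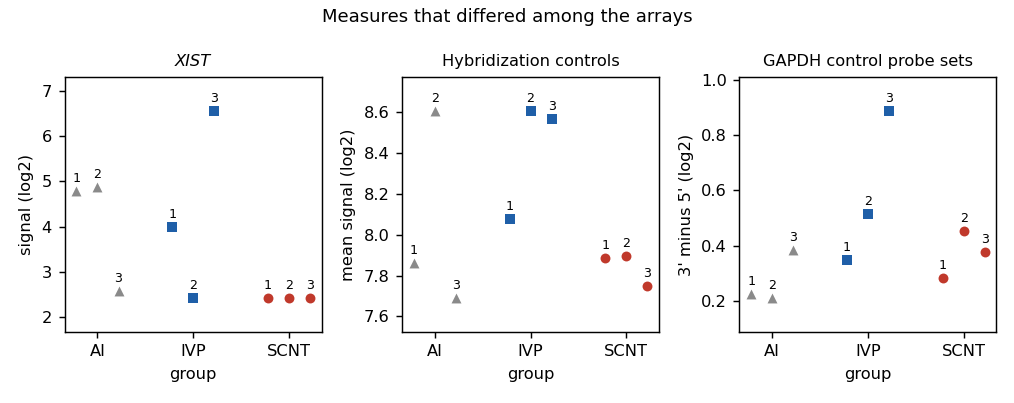
Signal of XIST (left), mean signal of the hybridization controls (middle) and the 3′ minus 5′ difference of the GAPDH control probe sets (right), in log2 units, with 1 point per array and the replicate number beside it. All SCNT arrays were at 2.42 for XIST while IVP 3 reached 6.55, and the hybridization controls were higher on every IVP array than on any SCNT array.

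Few probe sets separated cloned from in vitro produced conceptuses. With limma, 41 of 6571 tested probe sets passed an adjusted p of 0.05 (0.624%), 17 higher in SCNT (0.259%) and 24 lower (0.365%). On all 41 the 3 SCNT and the 3 IVP arrays did not overlap, and over all tested probe sets 13.2% were higher without overlap and 6.51% lower without overlap. PLET1, MARK1, PLPP5, ZFAND2A and some called probe sets without a symbol exceeded log2 4 only on the arrays of a single group. They passed the filter through that group alone, so their lack of overlap was fixed by the filter. The changes of 2-fold or more went mostly down, with 6 higher and 22 lower. Before adjustment, 841 had p under 0.05 and the balance was the other way, with 538 higher and 303 lower, and the median difference of all tested probe sets was 0.06 beside a median SE of 0.16. Of the 41, 28 carried 1 gene symbol and stood for 22 genes, 7 higher and 15 lower, and 13 had no symbol.

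The count depended on single arrays and on the fit. It was 10 without SCNT 2, 15 without IVP 2, 16 without IVP 3, 21 without SCNT 3, 24 without SCNT 1, 25 without AI 1 and 69 without AI 3. It was 5 with the hybridization controls as a covariate, 9 with the GAPDH gap and 6 with XIST, and 7 when every probe set was tested without the filter on low values. The 41 kept their direction in each of these fits. Of these fits only those with a covariate could have reversed it, as SCNT and IVP arrays did not overlap on the 41. Of the 22 named genes, ADD3, ATP1B1 and ZFAND2A kept their calls with each of the 3 covariates, DNAJB1 lost its call with the hybridization controls, and ALAD lost its call with the hybridization controls and with XIST. The calls of the other named genes ended with each of the 3. A lost call did not always go with a smaller difference. With the hybridization controls AHSG moved from -3.48 to -3.07, but HSPA1A from -1.29 to -1.61 and TXNDC9 from 0.90 to 1.09. These controls were higher on every IVP array than on any SCNT array, so covariate and group are hard to separate. Without the filter on low values only ADD3 and ATP1B1 of the named genes kept their calls, and in the fit of the 6 SCNT and IVP arrays alone BMP7, VCAN, MARK1, PPP1CC and CPOX lost theirs. A scaling of the arrays to equal distributions gave 12 higher and 26 lower, and centring on array medians gave 11 and 25, against 17 and 24.

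**Figure D2:**
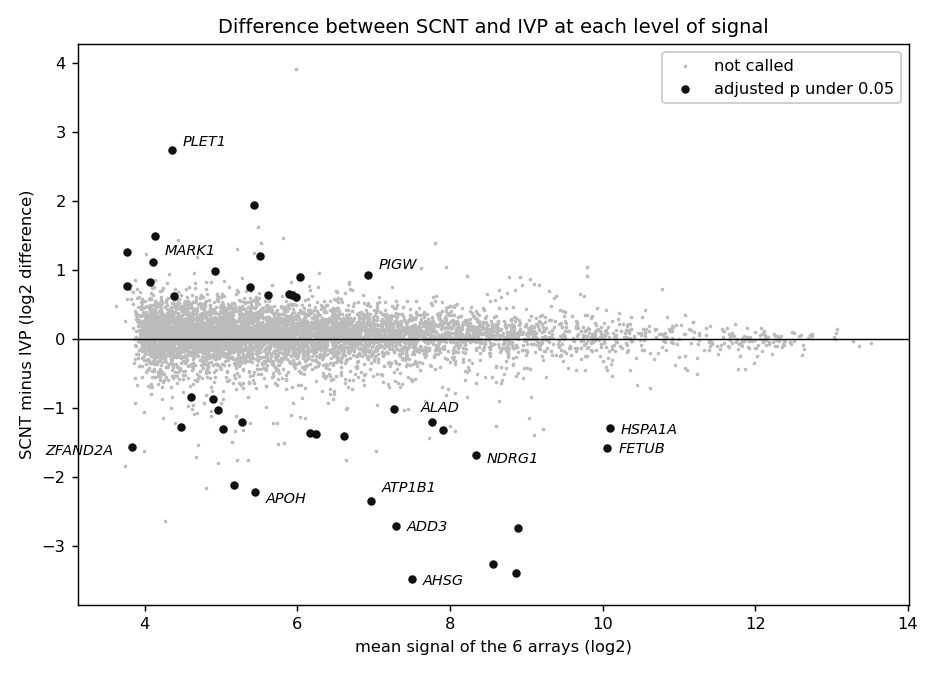
Difference SCNT minus IVP (log2, vertical axis) against the mean signal of the 6 arrays (log2, horizontal axis) for the 6571 tested probe sets, with the 41 that passed an adjusted p of 0.05 in black. Most probe sets lie close to 0, and the largest falls (AHSG, ADD3, ATP1B1, APOH) are larger than any rise that passed except that of PLET1.

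ADD3 and ATP1B1 showed the firmest differences, both lower in clones. ADD3 encodes gamma-adducin, which ties the spectrin and actin skeleton to the plasma membrane. It was at 5.71, 5.94 and 6.17 on the SCNT arrays and at 8.38, 8.83 and 8.71 on the IVP arrays. The SCNT arrays lay more than 2 log2 units below the lowest IVP array, and the AI arrays (8.53 to 8.75) fell in the IVP range. The difference of -2.70 (SE 0.16) is a 6.49-fold lower level (95% interval 5.06 to 8.33, adjusted p = 3.3e-05). A second probe set of ADD3 gave -1.36 (adjusted p = 0.00357), with 5.29 to 5.63 in SCNT against 6.60 to 6.97 in IVP.

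ATP1B1, the beta-1 subunit of the sodium and potassium pump that drives fluid transport across the trophoblast, was at 5.68, 5.71 and 6.0 in SCNT. Its IVP arrays were at 8.06, 7.92 and 8.43 and its AI arrays at 7.34 to 7.94, so that among conceptuses only the clones were low. The fibroblast arrays were at 5.67 to 5.73, near the clones, while for ADD3 they were at 3.89 to 3.98, below the clones. ATP1B1 was 5.06-fold lower in clones than in IVP (3.80 to 6.74, adjusted p = 0.000308). ADD3 and ATP1B1 were the only 2 of the 22 genes whose call held in all 26 other settings, which include the 9 omissions of single arrays and each covariate. Against IVP 2 alone, the IVP array that like the clones had XIST at 2.42, the differences were -2.89 for ADD3 and -2.12 for ATP1B1. Both were placed in a list of 22 tested genes of glucose, ion and water transport, though ADD3 is no transporter. In it these 2 fell, none rose and the median difference was 0.11. Gene by gene, with the brightest probe set of each of 4189 tested genes, 0.477% were called over the whole array, 0.119% higher and 0.358% lower, and the median was 0.05. ATP1B3, another beta subunit of the pump, gave 0.42 (adjusted p = 0.421), and the glucose transporter gene SLC2A1 gave -0.43 (adjusted p = 0.307).

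**Figure D3:**
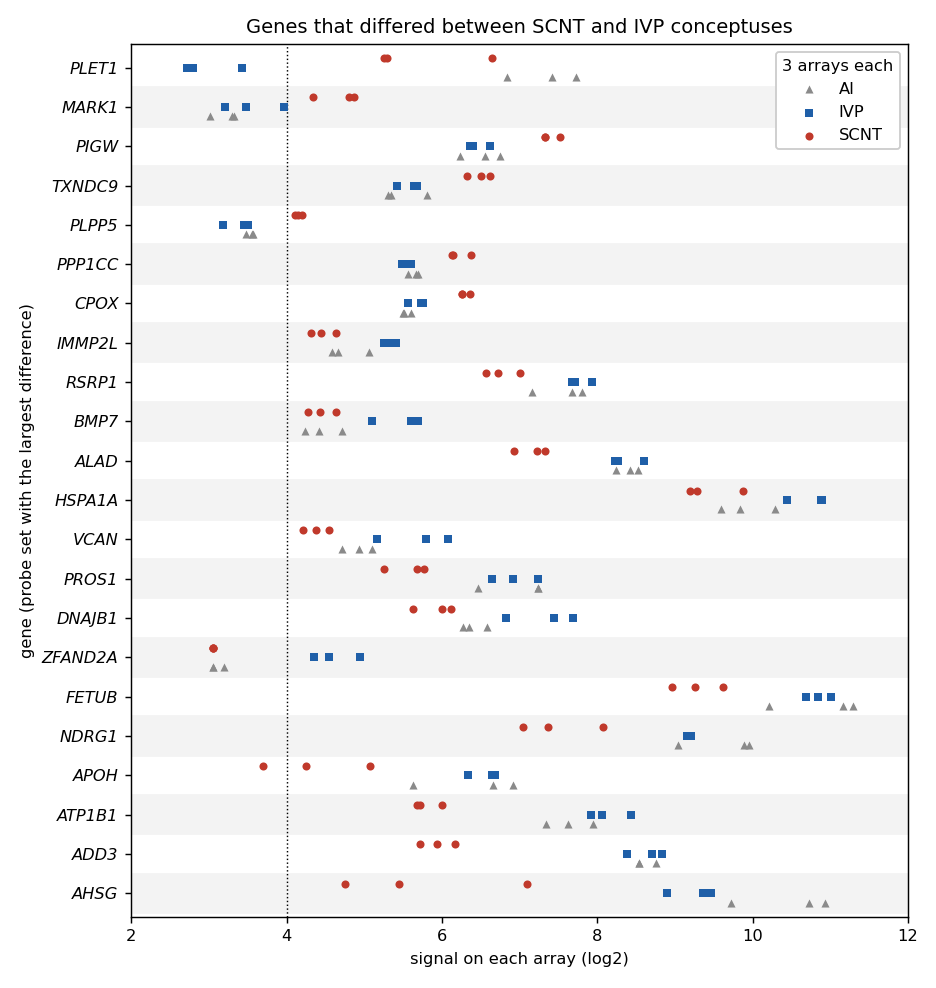
Signal on each array (log2) of the 22 named genes that differed between SCNT and IVP, ordered by difference, with 3 arrays each of AI (grey triangles), IVP (blue squares) and SCNT (red circles); the dotted line is the log2 4 limit. For every gene the SCNT and IVP arrays do not overlap, while the AI arrays lie near IVP for genes such as ADD3, ATP1B1 and ALAD and below all IVP arrays for genes such as ZFAND2A, BMP7 and DNAJB1.

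4 called genes of secreted plasma proteins fell, AHSG, APOH, FETUB and PROS1, proteins that liver and yolk sac are known to make. FETUB and PROS1 were not in the list of hypoblast and yolk sac genes described below. SERPING1, also the gene of a plasma protein, went the other way, at 5.59 to 5.83 in SCNT and 4.80 to 4.89 in IVP. It was not called in the main fit but was in the limma fit of the 6 arrays alone (0.88, adjusted p = 0.0273). AHSG, which encodes fetuin-A, was at 4.75, 5.45 and 7.09 on the SCNT arrays and at 8.90, 9.46 and 9.36 on the IVP arrays, by the probe set with the largest difference. The clones also varied most here, with an SD of 1.20 against 0.30 in IVP, and SCNT 3 was the highest of the clones and still below every IVP array. The difference of -3.48 (SE 0.50) is 11.1-fold (5.16 to 24, adjusted p = 0.0131), and the AI arrays were higher than IVP, at 9.73 to 10.93. 4 of the 5 tested probe sets assigned to AHSG fell, by 2.73 to 3.48. The fifth, from another probe set cluster, gave -0.21 (adjusted p = 0.772) and lay at 5.21 to 5.32 in fibroblasts and 5.06 to 5.97 on the SCNT and IVP arrays. One probe set of the cluster that fell is assigned to another gene, GATM, so the assignment of these probe sets rests on the array annotation.

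FETUB, the gene of fetuin-B, which lies next to AHSG in the bovine gene table, moved the same way. Its levels were 9.62, 8.96 and 9.26 in SCNT against 10.68, 10.85 and 11.01 in IVP, a 2.97-fold fall (1.97 to 4.46, adjusted p = 0.0323). APOH, which encodes beta-2-glycoprotein I, was at 4.26, 3.69 and 5.07 in SCNT and at 6.33, 6.65 and 6.69 in IVP, 4.65-fold lower (2.66 to 8.12, adjusted p = 0.0283). PROS1, the gene of the anticoagulant protein S, was 2.59-fold lower (1.80 to 3.72, adjusted p = 0.0342), with 5.26 to 5.76 in SCNT and 6.65 to 7.24 in IVP. Fibroblasts were at 5.97 to 6.14 for PROS1, above every SCNT array. For FETUB and APOH they were at 2.42 to 2.51 and 2.43 to 2.76. Among the AI arrays AI 3 was the lowest for all 4 genes, below every IVP array for FETUB, APOH and PROS1, while AI 1 and AI 2 lay within or above the IVP range. In a bulk sample, fewer cells of a type and less RNA per cell cannot be told apart.

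The calls in this group rested on few arrays. Those of AHSG, APOH and FETUB ended without SCNT 2, IVP 2 or IVP 3 (adjusted p up to 0.0916, 0.119 and 0.133), with APOH also ending without SCNT 1 and FETUB without SCNT 3 or IVP 1. PROS1 kept its call only without AI 2, AI 3 or IVP 1. With the hybridization controls as a covariate AHSG gave -3.07 (adjusted p = 0.215), and the calls of all 4 ended with each of the 3 covariates.

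Of the 32 genes on the array in a list of hypoblast and yolk sac genes, 14 passed the filter on low values and 13 of these had a difference below 0. AHSG and APOH fell and none rose. Arrays did not overlap for 8 lower genes and 1 higher, beside 6.80% lower and 12.9% higher over all genes, and the list's median was -0.48. It ran from -0.53 to -0.37 over the omissions of 1 array, was -0.33 with the hybridization controls and -0.23 with XIST as a covariate. Members that did not pass included COL4A1 of the basement membrane (-0.84, adjusted p = 0.198), APOE (-0.69, adjusted p = 0.314), the retinol carrier RBP4 (-0.66, adjusted p = 0.302) and the apolipoprotein gene APOA1 (-0.42, adjusted p = 0.307). GATA6 (-0.05) and ALB, the albumin gene (-0.04), were close to 0, and DAB2, an endocytic adaptor, was at 0.44 (adjusted p = 0.191). 14 of the 32 genes stayed below log2 4 on all 6 arrays, among them GATA4, AFP, TTR, APOB and HNF4A. The summed signal of the list was 12.74 to 13.06 in SCNT and 13.34 to 13.59 in IVP, and its part in the falls of single genes was not tested.

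3 genes induced by heat and protein stress fell in clones. DNAJB1, an HSP40 co-chaperone, was at 6.0, 6.12 and 5.63 in SCNT against 7.69, 7.44 and 6.82 in IVP by one probe set, a 2.64-fold difference (1.90 to 3.68, adjusted p = 0.0198), and by a second probe set 2.49-fold lower. HSPA1A, the inducible HSP70, was at 9.88, 9.20 and 9.28 in SCNT and 10.89, 10.44 and 10.88 in IVP, 2.44-fold lower (1.72 to 3.47, adjusted p = 0.0367). Of its 5 tested probe sets this was the only one that passed, with 2 others at -1.14 and -1.38 and 2 near 0. ZFAND2A, a stress-induced partner of the proteasome, was at 3.05 on all SCNT arrays and at 4.55, 4.35 and 4.95 in IVP, at least 1.53-fold lower in clones (difference -1.57, SE 0.15, adjusted p = 0.000986). The SCNT arrays, AI 1 and AI 2 held the same value below log2 4, so the SE and p may understate the spread of ZFAND2A. Where a level lay below log2 4 it was set to 4 for the fold, which is then a lower bound written as "at least".

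By these probe sets every AI array lay below every IVP array, while on the other 2 HSPA1A probe sets with a negative difference of that size AI 3 lay above IVP 2. ZFAND2A was at 3.05 to 3.19 in AI, DNAJB1 at 6.27 to 6.58 and HSPA1A at 9.59 to 10.29. The ZFAND2A call held in all 9 omissions of 1 array and with each covariate, and ended without the filter and when values below log2 4 were set to 4. DNAJB1 lost its call with the hybridization controls as a covariate and without SCNT 1, SCNT 2, SCNT 3 or IVP 2. HSPA1A lost it with each of the 3 covariates and without AI 1, SCNT 2, SCNT 3, IVP 1, IVP 2 or IVP 3. With the hybridization controls the differences themselves were larger, -1.63 for DNAJB1 in place of -1.40 and -1.61 for HSPA1A in place of -1.29. BAG3, an HSP70 co-chaperone, just missed the threshold (-1.43, adjusted p = 0.0532), as did the small heat shock gene HSPB8 (-1.33, adjusted p = 0.0746). In the fit of only the 6 SCNT and IVP arrays both were called.

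In a list of heat shock proteins and co-chaperones, of 29 tested genes 2 fell, DNAJB1 and HSPA1A, none rose, and the median was 0.14. 7 were higher without overlap, among them the mitochondrial chaperone genes HSPD1 (0.22, adjusted p = 0.545) and HSPA9 (0.26, adjusted p = 0.521), and 6 were lower, beside 12.9% higher and 6.80% lower over all genes.

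NDRG1, a gene induced by low oxygen, was at 7.36, 7.05 and 8.08 in SCNT and at 9.17, 9.16 and 9.21 in IVP. IVP arrays hardly varied (SD 0.03), SCNT 3 was the highest clone, and the AI arrays were at 9.04 to 9.95. The fall was 3.20-fold (2.09 to 4.91, adjusted p = 0.0283), and it lost its call in 5 of the 9 omissions of 1 array, namely without SCNT 1, SCNT 2, IVP 1, IVP 2 or IVP 3 (adjusted p up to 0.127) and with each covariate (0.269 with the hybridization controls, 0.106 with the GAPDH gap and 0.220 with XIST). It was the only called gene of 21 tested hypoxia genes, of which 16 had a difference below 0 and 5 were lower without overlap, with a median of -0.34, beside 6.80% lower without overlap and a median of 0.05 over all genes. P4HA1, a prolyl hydroxylase of collagen, gave -1.01 (adjusted p = 0.0542), and ADM, the adrenomedullin gene, -1.0 (adjusted p = 0.125). DDIT4 was at 10.03, 5.60 and 6.60 in SCNT and 8.44 to 9.17 in IVP, so SCNT 1 stood above every IVP array and the other clones below. HIF1A (0.10) and EPAS1 (0.01), the oxygen-sensing transcription factors, were close to 0, and VEGFA gave -0.17.

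Extracellular matrix genes were mostly lower without passing. VCAN, the proteoglycan versican, was at 4.21, 4.38 and 4.55 in SCNT and 5.17, 6.08 and 5.80 in IVP, 2.47-fold lower (1.77 to 3.43, adjusted p = 0.0283), and its other tested probe set fell as well. The call held without AI 1, AI 2, AI 3 or IVP 1 and ended on omission of each of the other 5 arrays, and with each covariate (adjusted p = 0.269 with the hybridization controls, 0.155 with the GAPDH gap and 0.209 with XIST). In a list of 17 integrin and matrix genes none passed, while 7 were lower without overlap, 14 were below 0 and the median was -0.34. Among 19 matrix proteases and inhibitors none passed, 6 were lower without overlap and the median was -0.21, where 6.80% of all genes were lower without overlap. The inhibitors TIMP1 (-1.79, adjusted p = 0.172) and TIMP2 (-1.75, adjusted p = 0.066) had the largest differences there. TIMP1 was at 3.98 to 4.11 in SCNT and 5.82 to 5.89 in IVP, and TIMP2 at 5.37 to 6.30 and 7.01 to 7.94. Both were called in the fit of the 6 arrays alone. On the AI arrays TIMP1 was at 6.66, 6.07 and 3.98, so AI 3 stood at the SCNT level. BMP7, a secreted growth factor, was at 4.43, 4.64 and 4.28 in SCNT and 5.10, 5.69 and 5.60 in IVP, 2.02-fold lower (1.52 to 2.70, adjusted p = 0.0417), with AI at 4.24 to 4.71. Its second tested probe set gave -0.34 (adjusted p = 0.516), and the call held only without AI 3 or IVP 1 and ended with each covariate (adjusted p = 0.315, 0.188 and 0.256, in the same order). It was the only called gene of 17 in a list of WNT, BMP, NODAL and FGF signalling, whose median was -0.02.

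ALAD and CPOX, both of heme synthesis, moved in opposite directions. ALAD, which makes porphobilinogen early in the pathway, was at 7.33, 6.93 and 7.22 in SCNT against 8.23, 8.60 and 8.26 in IVP, 2.30-fold lower (1.81 to 2.92, adjusted p = 0.00851), with AI at 8.24 to 8.52. CPOX, coproporphyrinogen oxidase, which acts later, was 1.53-fold higher (1.28 to 1.82, adjusted p = 0.0481), with 6.25 to 6.36 in SCNT and 5.56 to 5.75 in IVP. The ALAD call held in all 9 omissions of 1 array but not with the hybridization controls (adjusted p = 0.155) or XIST (adjusted p = 0.0635) as a covariate. The CPOX call held only without AI 2. FECH, the last enzyme, gave 0.49 (adjusted p = 0.222), and HMOX1, which breaks heme down, gave -1.75 (adjusted p = 0.173) with SCNT arrays at 5.90, 3.69 and 3.86. The globin genes were at the lowest value on these arrays. Of 10 tested genes in a list of erythroid and heme synthesis genes 1 rose and 1 fell, and the median was -0.08. Without overlap 2 were higher and 2 lower. Over all genes 0.119% were called higher and 0.358% lower, and 12.9% were higher and 6.80% lower without overlap.

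The remaining named falls were smaller. RSRP1 was 2.02-fold lower (adjusted p = 0.0407), at 6.57 to 7.00 in SCNT and 7.68 to 7.93 in IVP, but its other tested probe set gave -0.56 (adjusted p = 0.388) with overlapping arrays. IMMP2L, a peptidase of the inner mitochondrial membrane, was 1.82-fold lower (adjusted p = 0.0363), at 4.32 to 4.63 against 5.25 to 5.41. Among the omissions of 1 array each kept its call only without AI 2 or AI 3. The largest fall of a probe set without a gene symbol was 4.32-fold (adjusted p = 0.00881), with 3.71 to 4.81 in SCNT against 5.88 to 6.43 in IVP, and the next was 2.29-fold (adjusted p = 0.00851).

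PLET1 rose most in clones. The gene encodes a surface protein of trophoblast progenitors and other epithelia. It was at 6.65, 5.26 and 5.29 in SCNT and at 2.72, 3.43 and 2.79 in IVP, where no array reached log2 4. The AI arrays were higher than both, at 6.84 to 7.73, and the fibroblast mean was 2.44. The difference was 2.75 (SE 0.37, adjusted p = 0.00851), at least 3.32-fold. The call held in all 9 omissions of 1 array, ended without the filter and when values below log2 4 were set to 4, and ended with each covariate (adjusted p = 0.157 with the hybridization controls, 0.0786 with the GAPDH gap and 0.080 with XIST, at differences of 2.53 to 2.60). It was the only called gene of 20 tested keratin and junction genes, whose median was 0.04. Its second probe set was below the filter.

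6 other named genes rose by less. MARK1, a kinase that regulates microtubules, was at 4.87, 4.34 and 4.81 in SCNT and at 3.97, 3.48 and 3.21 in IVP, at least 1.60-fold higher (adjusted p = 0.0424). PIGW, which acts in the synthesis of the GPI anchor, was at 7.33, 7.52 and 7.33 against 6.62, 6.40 and 6.36, 1.91-fold higher (1.51 to 2.42, adjusted p = 0.0279). TXNDC9, a thioredoxin-like protein that binds the cytosolic chaperonin, was at 6.32, 6.50 and 6.62 against 5.64, 5.68 and 5.42, 1.87-fold higher (1.46 to 2.39, adjusted p = 0.0367). In each of these the clones stood above both other conceptus groups, as AI was at 3.01 to 3.32, 6.24 to 6.74 and 5.31 to 5.80. Fibroblasts were at 3.49 to 3.64 for MARK1 and 4.82 to 4.90 for PIGW, below the clones. For TXNDC9 they were at 6.65 to 6.80, above the clones. PPP1CC, a catalytic subunit of protein phosphatase 1, was 1.58-fold higher (1.31 to 1.90, adjusted p = 0.0417), but its brighter second probe set gave 0.20 (adjusted p = 0.489). PLPP5, a lipid phosphatase, was at least 1.11-fold higher (adjusted p = 0.0268), with SCNT between 4.11 and 4.20, just above the log2 4 limit, but its other, brighter probe set gave 0.40 (adjusted p = 0.282). MARK1 and PLPP5, with IVP arrays below log2 4, lost their calls when values below log2 4 were set to 4. Among the omissions of 1 array MARK1 kept its call only without AI 3 or IVP 1, and TXNDC9 and PPP1CC only without AI 2 or AI 3. PIGW and PLPP5 lost theirs on omission of SCNT 1, SCNT 2, SCNT 3, IVP 2 or IVP 3. PPP1CC and TXNDC9, like CPOX, lost their calls when arrays were scaled to equal distributions or centred on their medians.

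10 of the 17 probe sets that rose had no gene symbol. The largest rise among them belonged to a probe set at 6.33 to 6.47 in SCNT and 4.01 to 4.77 in IVP (3.83-fold, 2.89 to 5.08, adjusted p = 0.000952). Fibroblasts were at 5.84 to 5.96 on it and AI at 3.92 to 4.16, so the clones were the conceptuses nearest to the fibroblast level. The next was at 4.65 to 5.12 in SCNT and below log2 4 in IVP, AI and fibroblasts (at least 1.84-fold, adjusted p = 0.000952).

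Genes that set donor fibroblasts apart from AI conceptuses were examined as 2 lists. Among the 500 tested probe sets highest in fibroblasts over AI conceptuses, 2 were called higher and 1 lower in SCNT than in IVP (0.60%, beside 0.624% of all tested probe sets), and the median difference was -0.01. In the fit of the 6 arrays alone it was 1 higher and 7 lower. In that list 9.40% were higher without overlap and 14% lower, beside 13.2% and 6.51% of all tested probe sets. Among the 500 lowest in fibroblasts, 1 was called higher and 10 lower (2.20%), with a median of 0.03, and 5.40% were higher and 12.2% lower without overlap. The 10 were 4 probe sets of AHSG, 2 of ADD3 and those of ALAD, APOH, FETUB and RSRP1, and the 1 was PLET1. Probe sets of the same gene are repeated measures, so the 10 are not separate genes. Without SCNT 2, IVP 2 or IVP 3 the count of called probe sets in the lowest list was 4, 5 and 4, in place of 11. In the fit of the 6 arrays alone that count was 15, with 1 higher and 14 lower. The count in the highest list, 3 in all, ran from 1 to 5 over the omissions of each SCNT or IVP array, with 1 without SCNT 1, SCNT 2 or IVP 3 and 5 without IVP 1.

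Several lists of growth and housekeeping processes had medians slightly above that of all genes, with no member called. Of 55 tested genes of DNA replication and mitosis 45 had a difference above 0 and 13 were higher without overlap, with a median of 0.14. CCNB1, a mitotic cyclin, was at 7.36 to 7.59 in SCNT and 6.86 to 7.08 in IVP (0.49, adjusted p = 0.132), and CCND2, a cyclin of G1, gave 0.69 (adjusted p = 0.091). Mitochondrial ribosomal proteins had 15 of 67 higher without overlap and a median of 0.11, led by MRPL46 (0.82, adjusted p = 0.126). For translation factors and tRNA synthetases it was 14 of 60 and 0.12, for proteasome subunits 8 of 36 and 0.12, and for RAB GTPases 6 of 20 and 0.18, where RAB25 gave 0.72 (adjusted p = 0.183). These stand beside 12.9% higher without overlap and a median of 0.05 over all genes. Cytosolic ribosomal proteins (64 tested, median -0.02) and oxidative phosphorylation (76 tested, median -0.003) had medians near 0. Under scaling to equal distributions the medians for replication and mitochondrial ribosomal proteins were 0.10 and 0.07, beside 0.02 over all probe sets. Of the 44 lists, 37 had no called gene.

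**Figure D4:**
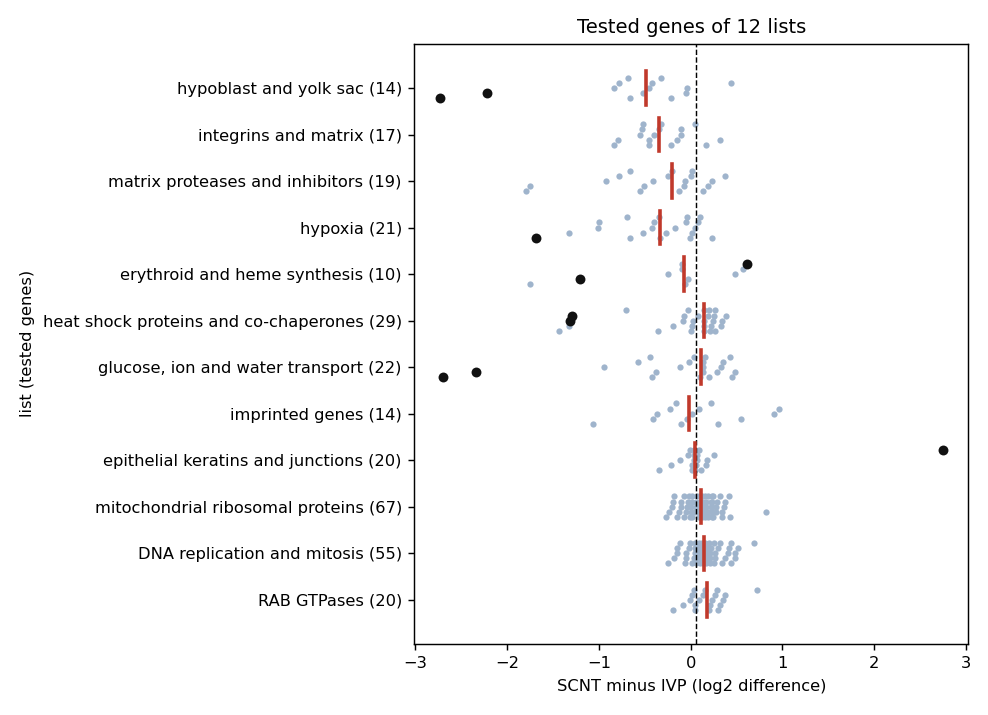
Difference SCNT minus IVP (log2) of each tested gene in 12 lists, with the number of tested genes in parentheses, called genes in black, the list median as a red bar and the median of all 4189 genes (0.05) as a dashed line. The hypoblast, matrix and hypoxia lists have medians between -0.48 and -0.21, and the replication, mitochondrial ribosome and RAB lists have medians of 0.11 to 0.18.

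Imprinted genes and DNA methylation genes, often examined in clones, did not pass here. CDKN1C, an imprinted inhibitor of the cell cycle, was at 8.60, 8.83 and 8.59 in SCNT and 7.91, 8.26 and 7.11 in IVP, above it without overlap (0.91, 95% interval 0.35 to 1.47, adjusted p = 0.164). PHLDA2, an imprinted brake on placental growth, was at 5.83, 5.25 and 4.29 in SCNT and 4.14 to 4.17 in IVP (0.96, interval 0.19 to 1.74, adjusted p = 0.288). IGF2R gave 0.09 and PEG3 -0.16. IGF2 and PEG10 were below the filter, with none of the 6 arrays above 2.78. Of 14 tested imprinted genes none passed, 3 were higher and 3 lower without overlap (12.9% and 6.80% over all genes), and the median was -0.01. UHRF1, which recruits the maintenance methyltransferase, gave 0.33 (adjusted p = 0.340), and the methyltransferase gene DNMT3A gave -0.11, while DNMT1 and DNMT3B were below the filter. Of 33 Polycomb and histone modification genes none passed, 4 were higher without overlap, a share near that over all genes, and the median was 0.07, with RNF2, a Polycomb ubiquitin ligase, at 0.46 (adjusted p = 0.245).

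None of the tested genes for secreted products of trophoblast passed. In a list of interferon tau and other secreted trophoblast proteins, 2 of 5 tested genes were lower without overlap and none higher. The lowest difference there was -1.79, that of TIMP1, which is also among the matrix protease inhibitors above. Over all genes 6.80% were lower without overlap. IFNT2 differed by -0.03 (interval -0.31 to 0.26), and TKDP1, a Kunitz domain protein, was at 13.40 to 13.59 on the 6 arrays. Both lay near the highest value of the data, 13.66, and saturation was not tested. TKDP4 gave -0.43 (adjusted p = 0.489), and TKDP2 was below the filter, at 2.56 to 3.33 on the 6 arrays against 10.08 to 11.16 in AI. Of 18 pregnancy-associated glycoprotein genes on the array, the aspartic proteinase relatives made by ruminant trophoblast, 4 were tested. PAG11 gave 0.15, PAG2 -0.13, PAG8 0.78 (adjusted p = 0.352) and PAG12 1.04 (adjusted p = 0.497), the last with IVP arrays at 7.64, 10.62 and 9.57. Among transcription factors ASCL2 gave 0.22, HAND1 0.10 and ID1 -0.85 (adjusted p = 0.0722). HSD17B1, which makes estradiol, was at 9.42, 10.87 and 10.47 in SCNT and 10.07, 9.74 and 9.69 in IVP (0.42, interval -0.24 to 1.08, adjusted p = 0.601), while AI was at 5.45. SLC27A6, a fatty acid transporter, overlapped widely (-0.16, interval -1.11 to 0.79) at 5.78 to 7.73 against 6.46 to 7.62, and AI was at the lowest value of 2.42. B2M, which encodes beta-2-microglobulin, gave -0.41 (interval -1.47 to 0.64).

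Large differences also occurred outside the calls. Of the uncalled probe sets with a 2-fold difference, 46 did not overlap, 7 higher and 39 lower, and 10 overlapped. IGHM, an immunoglobulin heavy chain gene, was at 8.77, 8.03 and 7.00 in SCNT and at 7.01, 2.50 and 2.57 in IVP, so that IVP 1 reached the level of SCNT 3 (3.91, adjusted p = 0.188). GZMB, a protease gene of cytotoxic lymphocytes, was at 2.49, 2.42 and 3.95 in SCNT and 5.18, 5.60 and 5.98 in IVP (-2.64, adjusted p = 0.0783, called in the fit of the 6 arrays alone). Of 29 leukocyte genes on the array 24 stayed below log2 4 on all 6 arrays, PTPRC among them. The summed leukocyte signal was 8.35 to 9.49 in SCNT and 8.43 to 8.59 in IVP, a sum that includes IGHM itself, and its part in these differences was not tested.

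At the limit of the threshold, CPOX lay just inside (adjusted p = 0.0481), and BAG3, HSPG2, P4HA1 and the bile acid transporter gene SLC10A1 lay just outside (0.0532, 0.0542, 0.0542 and 0.0579). The filter kept 221 probe sets above log2 4 on exactly 3 of the 6 arrays, on all 3 SCNT arrays alone for 39 of them and on all 3 IVP arrays alone for 21, and it left out 246 that exceeded it on 2 arrays.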

How the data were processed

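Total RNA was amplified, biotin-labelled and hybridized to Affymetrix bovine arrays. The deposited log2 signals were used as the authors left them; GCRMA and limma are named in the submitters' processing notes, with versions and the set of arrays normalized together not given in the sources used here. Values ran from 2.42 to 13.66. Limma 3.58.1 in R 4.3.3 was fitted to the 9 conceptus arrays with 1 coefficient per group (6 residual degrees of freedom), two-sided, with Benjamini-Hochberg adjustment over 6571 probe sets. Intervals are 95%. The number of arrays limits the precision.

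Gene symbols are those of the platform annotation (13292 probe sets with 1, 86 with several, 10638 with none); 13263 matched the ARS-UCD2.0 gene table, used for names and neighbours only. In lists, the brightest tested probe set stands for a gene. Named were the 12 largest rises and falls with 1 symbol that passed without overlap, up to 4 called members per list, and a fixed set of genes. The members, the 44 lists and the settings were chosen with earlier results of these data known. Other filters, scalings, floors, thresholds, variance models, sets of arrays, covariates, a replicate block and omissions of each array were tried. The fit was tested on simulated data. Other genes were chosen after their values were seen.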

Additional observations from a re-analysis of the deposited data

How the results depend on the processing

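The 41 called probe sets kept their direction in the 26 other settings, in each wherever they were tested (22 of them with a limit of log2 6). This was largely fixed in advance. As the SCNT and IVP arrays of the 41 did not overlap, omitting or weighting arrays could not reverse a sign. Other filters, thresholds and variance models left the difference unchanged. Only scalings and covariates could have reversed it. Against 41 calls, there were 7 without the filter on low values, 22 with a limit of log2 6, 139 with all 12 arrays in the fit, 116 with array quality weights, 11 and 96 at adjusted p of 0.01 and 0.1, 5 with the hybridization controls and 9 with the GAPDH gap as a covariate, and 10 to 69 over the omissions of each array. Chosen after seeing the data, XIST as a covariate gave 6, IVP 2 as the only IVP array, assumed to vary like the other groups, gave 10, and the omission of the 3 arrays of highest hybridization control signal gave 4. The fit of the 6 arrays called 45, 12 higher and 33 lower, of which 28 were shared with the 41. Rises of named genes called there but not in the main fit were ENPP4 (1.24), SERPING1 (0.88) and CRIM1 (0.86). The causes were not tested. Deviations from the group means of same-numbered SCNT and IVP arrays correlated at r of -0.15, -0.002 and -0.14. For SCNT with AI r was 0.11, -0.03 and -0.09, and for IVP with AI 0.005, 0.18 and 0.05. These values cannot show whether same-numbered arrays shared a batch. With the replicate number as a block, 24 probe sets were called, 22 of them among the 41. In the donor-cell lists the count of 3 for the highest list became 1 with 200 probe sets and 5 with 1000. It was 8 with the 6 arrays (1 higher and 7 lower), and ran from 1 to 5 over the omissions. The count of 11 for the lowest list became 8 with 200 probe sets and 19 with 1000. It was 15 with the 6 arrays (1 higher and 14 lower) and 9 with values below log2 4 set to 4, and ran from 4 to 11 over the omissions.

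Among the tested genes of the fixed set that did not pass, 13 turned sign in some setting. Only CDKN1C, HSD17B1, PHLDA2, TKDP1 and UHRF1 of them did not, each by its brightest probe set. The signs of other uncalled genes were not followed through the settings. Over the omissions of 1 array the difference ran from -0.076 to 0.45 for ASCL2, -0.39 to 0.41 for HAND1, -0.080 to 0.0096 for IFNT2, -0.035 to 0.16 for IGF2R, -0.33 to 0.065 for PAG2, -0.43 to 0.096 for PEG3 and -0.55 to 0.43 for SLC27A6. With the hybridization controls as a covariate B2M was 0.66, IFNT2 0.15, IGF2R -0.20, PAG8 -0.028 and PEG3 0.019. With the GAPDH gap IGF2R was -0.020 and PEG3 0.18. With XIST IFNT2 was 0.041, IGF2R -0.046, PEG3 0.037 and SLC27A6 0.052. Against IVP 2 alone HAND1 was -0.27, IGF2R -0.021, PAG12 -0.30 and SLC27A6 0.48. Without the 3 arrays of highest hybridization control signal ASCL2 was -0.24, B2M 0.20, DNMT3A 0.076, IFNT2 0.086, IGF2R -0.049, PAG11 -0.015, PEG3 0.37 and TKDP4 0.065. Array quality weights gave -0.032 for HAND1, 0.0026 for IFNT2 and 0.24 for SLC27A6, and scaling to equal distributions gave 0.056 for IFNT2.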
